A study of Mus musculus with 12 samples.

Results

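The genes described here are 33 mouse genes whose products take long-chain fatty acids into the heart muscle cell, bind and store them, and oxidise them to acetyl-CoA. They were chosen by name, with earlier results of these data known. Shares of these genes set beside those of all probe sets are therefore descriptive. Of the 33 genes, 31 were read, out of 18193 genes named on the arrays. These 31 were measured by 60 of the 45037 probe sets, a probe set being a group of short probes for 1 transcript. Where a gene had more than 1 probe set, as 18 did, its brightest over all arrays was read. Cpt1b, the muscle form of carnitine palmitoyltransferase 1, lies on 1 probe set that names several genes and was not read, and Acsl1, a long-chain acyl-CoA synthetase, was not analysed here.

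Whole hearts of male C57BL/6J mice were profiled on 12 arrays, 3 in each of 4 groups. The groups are knockout-labelled DOX, knockout-labelled no DOX, WT DOX and WT no DOX. DOX is doxorubicin, an anthracycline used against cancer that damages the heart, given once into the peritoneum at 15 mg/kg with the hearts taken at day 5. The labels give an age of 8 to 10 weeks, no treatment for the mice without DOX, and a CHIP knockout as the altered genotype, where the paper describes a transgene for CHIP restricted to the heart, saline, a larger dose and older mice. The promoter of that transgene, and whether hearts were pooled on an array, are not given in the sources used here. Stub1, the gene of the ubiquitin ligase CHIP, went against the knockout label. The brighter of its 2 probe sets read 5561, 7998 and 8723 in knockout-labelled DOX, 8762, 9817 and 9655 in knockout-labelled no DOX, 1944, 1949.9 and 1930.1 in WT DOX and 1857, 1831 and 1790.3 in WT no DOX hearts. It gave a log2 difference of 1.89 in knockout-labelled against WT hearts after DOX and of 2.34 without DOX, and the other gave -0.08 and -0.04. The word "knockout-labelled" therefore names the label of these arrays only.

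Fatty acids are the main fuel of the adult heart. They enter the cell with the help of CD36 and fatty acid transport proteins, are carried by small binding proteins or kept in lipid droplets, and are joined to coenzyme A. The carnitine shuttle, which malonyl-CoA restrains, then moves them into the mitochondrion. There each turn of beta-oxidation takes an acyl-CoA dehydrogenase, a hydratase, a second dehydrogenase and a thiolase, and the electrons of the first step pass through the electron transfer flavoprotein to the respiratory chain. Unsaturated fatty acids need extra isomerases and a reductase, and very long chains are shortened in peroxisomes. Many of these genes are known targets of the PPAR and ERR nuclear receptors and their coactivator PGC-1.

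Values are linear intensities, and differences are in log2(intensity + 32), which understates changes of dim genes. The mean intensity ranged among the 31 genes from 59.7 for Acsl3 to 14708 for Fabp3. It was at least 100 for 29 and at least 1000 for 24 of them. Array medians ran between 28.9 and 30.4, and pairs of arrays correlated over probe sets at 0.976 to 0.997. All 10 listed cardiomyocyte markers were read, with means from 3270 for Ryr2 to 23722 for Myl2. The 6 adipocyte markers read summed to between 282.8 and 811.9 on single arrays, and among them Adipoq, Cidec and Lep averaged 11.0, 7.43 and 8.06. The titles call the arrays of a group biological replicates but do not say that each is a separate mouse, so p-values measure the spread between these arrays, which may be technical. In RNA of whole hearts, fewer cells of a type and less RNA per cell cannot be told apart.

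The first question was how DOX changed these genes in each genotype. In knockout-labelled hearts 5 of the 31 genes rose after DOX and 0 fell (limma, adjusted p under 0.05 over all probe sets): Ech1, Acadvl, Acadsb, Decr1 and Hadhb. That is 16.1% of the genes, where 0.731% of all probe sets, and 3.67% of those with a mean of at least 1000, were called higher and 1.47% of all were called lower. The 3 DOX arrays lay wholly above the 3 arrays without DOX for 19 genes (61.3%), against 11.1% of all probe sets and 18.3% of the bright ones. They lay wholly below for 2, Fabp4 and Acsl4, against 9.59% of all probe sets. Means were higher for 28 genes and lower for 3, and the median difference was 0.31, beside 0.0077 over all probe sets. At an unadjusted p under 0.05 limma gave 20 higher and 1 lower, against 16.2% of all probe sets in either direction.

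In WT hearts 1 gene rose after DOX, Plin5, and 0 fell, where 1.66% of all probe sets and 5.07% of the bright ones were called higher and 1.4% of all were called lower. The groups did not overlap for 7 genes (22.6%), all higher, against 11.6% of all probe sets and 20.2% of the bright ones. None lay wholly lower, against 12.8% of all probe sets. Means were higher for 23 genes and lower for 8, with a median of 0.13, beside -0.0061 over all probe sets. The 2 DOX responses rest on different arrays.

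The second question was how the genotypes differed. Without DOX, 3 genes were lower in knockout-labelled than in WT hearts and 0 were higher: Ech1, Decr1 and Acadvl. This is 9.68% of the genes, where 0.89% of all probe sets and 3.14% of the bright ones were called lower and 0.924% of all were called higher. For 16 genes (51.6%) all 3 knockout-labelled arrays lay below all 3 WT arrays, against 10.7% of all probe sets and 19.1% of the bright ones, and for 0 all lay above, against 8.7% of all probe sets. The median difference was -0.28. The knockout-labelled no DOX arrays serve in this comparison and in the DOX response of the same genotype, so the counts of the 2 are not independent. After DOX no gene was called in limma, where 0.941% of all probe sets were. On the brightest probe sets 1 gene (Mlycd) was lower at an unadjusted p under 0.05, against 15.5% of all probe sets in either direction. The arrays lay apart for 1 gene, Eci1, which was lower, against 9.13% of all probe sets, and for 0 higher, against 11.2%. The methods' t-test gave 0 after DOX, adjusted or not. Means after DOX were lower in knockout-labelled hearts for 24 genes and higher for 7, with a median of -0.076.

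**Figure D1:**
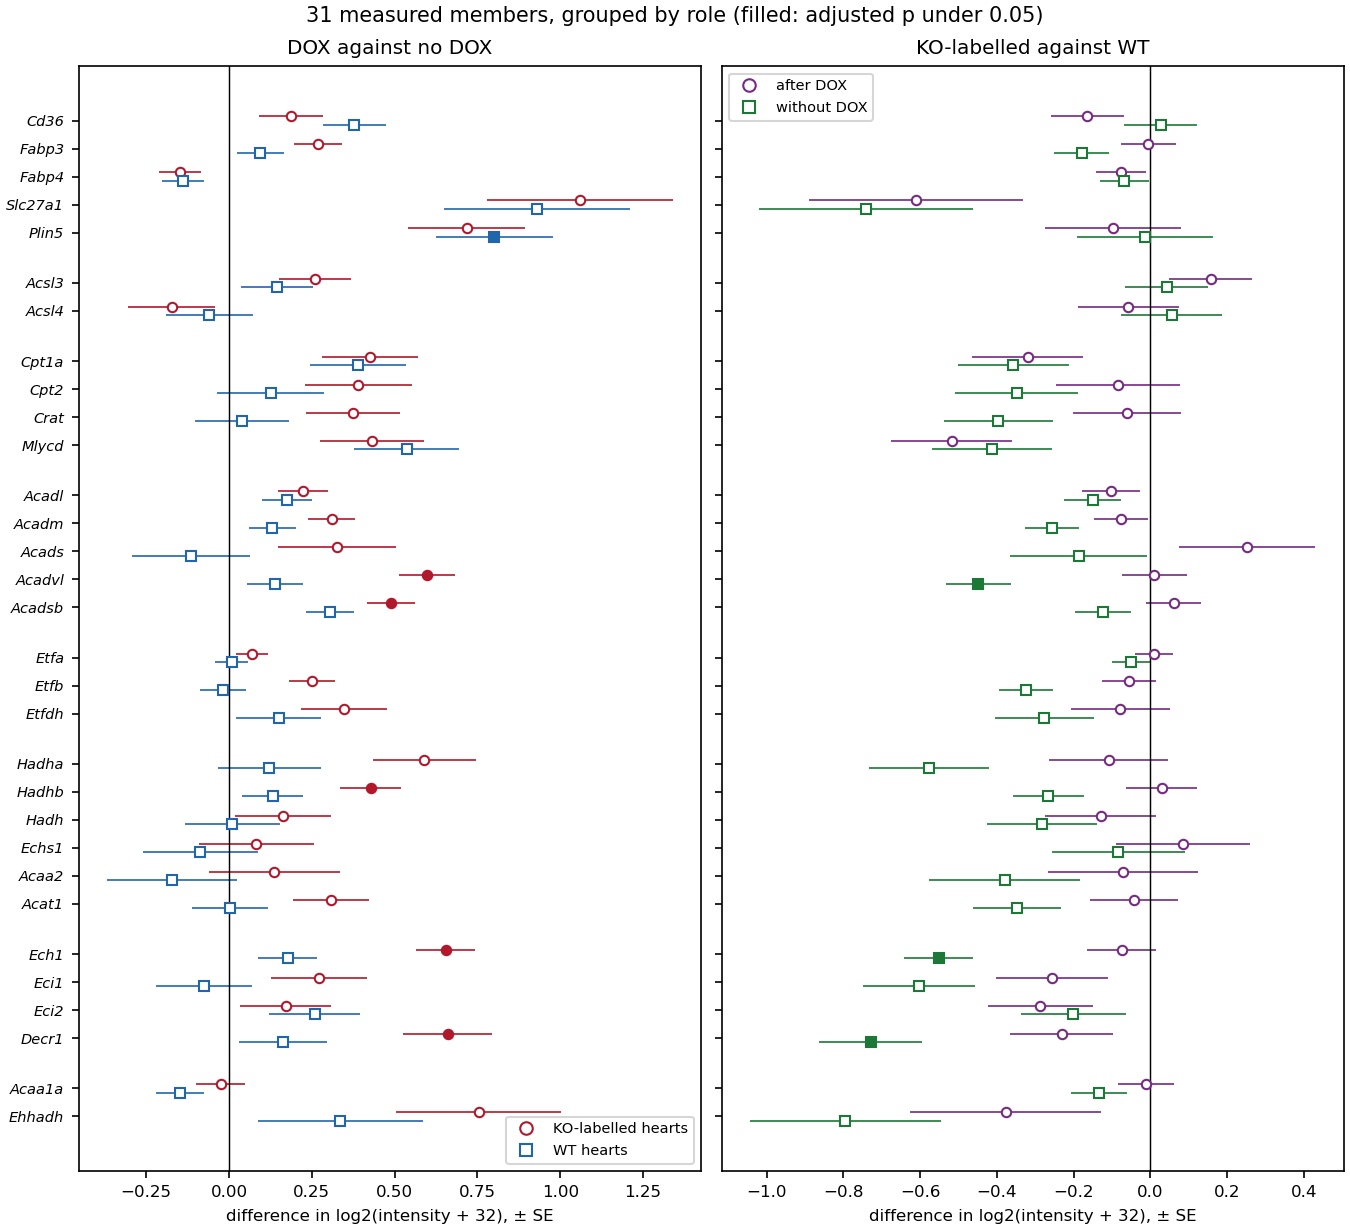
Difference in log2(intensity + 32) with its standard error for each of the 31 genes, in blocks by role from uptake (top) to peroxisomal enzymes (bottom). Left, DOX against no DOX in KO-labelled (knockout-labelled) and WT hearts; right, KO-labelled against WT hearts after and without DOX. Filled symbols passed an adjusted p under 0.05. In knockout-labelled hearts 28 of 31 points of the DOX response lie right of 0, and without DOX 28 of 31 points of the genotype difference lie left of 0.

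Among the 5 genes of uptake, binding and storage, Plin5 was the one called. Plin5 encodes perilipin 5, which coats lipid droplets and ties them to mitochondria. Its intensity was 1335, 2165 and 1495 on the WT DOX arrays and 896, 981 and 891 on the WT no DOX arrays. All 3 DOX arrays lay above all 3 arrays without DOX, with a difference of 0.80 ± 0.18 (SE, adjusted p = 0.044 from limma). In knockout-labelled hearts it was 1898, 1413 and 1312 with DOX and 874, 864 and 1007 without, again with no overlap, at 0.72 ± 0.18 (SE, adjusted p = 0.071). The second Plin5 probe set gave 0.68 in both genotypes, with adjusted p of 0.081 in knockout-labelled and 0.068 in WT hearts.

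Cd36, the membrane receptor that takes up long-chain fatty acids, was 8662, 9657 and 9908 in WT DOX hearts and 7244, 7272 and 7138 in WT no DOX hearts. The DOX arrays lay above the others, at 0.38 ± 0.095 (SE, adjusted p = 0.064). A dimmer Cd36 probe set was called in WT hearts, at 0.58 (adjusted p = 0.035), with 0.13 (adjusted p = 0.67) in knockout-labelled hearts. The dimmest of the 3 Cd36 probe sets gave 0.53 (adjusted p = 0.078) in knockout-labelled and 0.47 (adjusted p = 0.091) in WT hearts. On the brightest, in knockout-labelled hearts Cd36 was 8975, 8366 and 7840 with DOX and 6597, 6959 and 8675 without, so that the groups overlapped through 1 array without DOX (0.19, adjusted p = 0.38).

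Slc27a1 encodes fatty acid transport protein 1 and had the largest ratio of highest to lowest group mean among the 31 genes, 3.46. It stood at 597, 403 and 408 in knockout-labelled DOX hearts and at 189, 316 and 141 in knockout-labelled no DOX hearts. In WT hearts it stood at 508, 961 and 769 with DOX and at 408, 353 and 335 without. The DOX arrays were the higher ones in both genotypes, without overlap. The differences of 1.06 ± 0.28 (SE, adjusted p = 0.088) in knockout-labelled and 0.93 ± 0.28 (SE, adjusted p = 0.10) in WT hearts missed the threshold on this probe set. The second Slc27a1 probe set passed in both, at 1.23 (adjusted p = 0.024) in knockout-labelled and 0.94 (adjusted p = 0.049) in WT hearts. Between genotypes Slc27a1 was -0.61 ± 0.28 (SE, adjusted p = 0.34) after DOX and -0.74 ± 0.28 (SE, adjusted p = 0.25) without.

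The binding proteins differed in direction on their brightest probe sets, and neither was called there. Fabp3, the heart form, was 15964, 15898 and 14874 in knockout-labelled DOX hearts and 12664, 13561 and 12558 in knockout-labelled no DOX hearts, with no overlap but short of the threshold (0.27, adjusted p = 0.088). Fabp4, a binding protein of adipocytes and capillary endothelium, went the other way on its brightest probe set, with differences of -0.15 (adjusted p = 0.30) in knockout-labelled and -0.14 (adjusted p = 0.28) in WT hearts. A dim Fabp4 probe set was called higher in WT hearts, at 0.85 (adjusted p = 0.020), with 0.46 (adjusted p = 0.13) in knockout-labelled hearts. Another gave 0.44 (adjusted p = 0.33) in knockout-labelled and 0.35 (adjusted p = 0.42) in WT hearts. The remaining one gave -0.24 (adjusted p = 0.097) and -0.07 (adjusted p = 0.65) in the same order, so the probe sets of this gene disagreed in direction. None of the 10 listed endothelial markers was called in any comparison, and their summed intensity was 3563 to 4495 in knockout-labelled DOX, 4298 to 5034 in knockout-labelled no DOX, 4348 to 5062 in WT DOX and 4495 to 5150 in WT no DOX hearts. The 6 adipocyte markers read summed to 481.3 to 738.8 in knockout-labelled DOX, 282.8 to 346.0 in knockout-labelled no DOX, 582.0 to 811.9 in WT DOX and 415.2 to 506.5 in WT no DOX hearts, with Lipe the brightest of them and Adipoq, Cidec and Lep near the lowest intensities. The part of endothelial cells and adipocytes in the Plin5, Cd36, Slc27a1 and Fabp4 values was not tested.

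Of the enzymes that join fatty acids to coenzyme A, Acsl3 and Acsl4 were dim. Acsl3 averaged 71.3 ± 5.39 (SD, n = 3) in knockout-labelled DOX and 54.6 ± 10.3 (SD, n = 3) in knockout-labelled no DOX hearts, a difference of 0.26 (adjusted p = 0.27). Acsl4 averaged 87.6 ± 3.56 and 104 ± 18.1 (SD, n = 3) in the same groups, at -0.17 (adjusted p = 0.61). Neither was called in any comparison.

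The carnitine shuttle group comprised Cpt1a, Cpt2, Crat and Mlycd. Cpt1a and Cpt2 are the outer and inner carnitine palmitoyltransferases, Crat is carnitine acetyltransferase, and Mlycd is malonyl-CoA decarboxylase, which removes the inhibitor of the outer transferase. All 4 had DOX arrays wholly above the arrays without DOX in knockout-labelled hearts, against 11.1% of all probe sets and 18.3% of the bright ones. The differences lay between 0.37 and 0.43, and none was called. Dimmer probe sets gave 0.28 and 0.02 for Crat, 0.10 and -0.0041 for Cpt1a and 0.05 for Cpt2, also uncalled. Mlycd had the smallest p of the 31 genes between genotypes after DOX: its intensity was 727, 542 and 492 in knockout-labelled DOX hearts, against 693, 908 and 949 in WT DOX hearts. The groups overlapped, since the highest knockout-labelled array stood above the lowest WT array, and the difference was -0.52 ± 0.16 (SE, adjusted p = 0.15). Without DOX, Mlycd was 426, 461 and 379.5 in knockout-labelled and 524, 655 and 542 in WT hearts. Its DOX response was 0.43 (adjusted p = 0.20) in knockout-labelled and 0.54 (adjusted p = 0.098) in WT hearts. Cpt1a was 541, 393 and 421 in knockout-labelled DOX and 526, 603 and 573 in WT DOX hearts, at -0.32 ± 0.14 (SE, adjusted p = 0.33). Without DOX it was 373, 340.0 and 269.7 in knockout-labelled and 422, 497 and 366 in WT hearts (-0.36, adjusted p = 0.29).

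The acyl-CoA dehydrogenases carry out the first step of each turn and are named for the chain they prefer. All 5 had DOX arrays wholly above the arrays without DOX in knockout-labelled hearts, against 11.1% of all probe sets and 18.3% of the bright ones. Of these, Acadvl and Acadsb rose past the threshold. Acadvl, the very-long-chain enzyme, was 6410, 5782 and 5816 in knockout-labelled DOX hearts and 4039, 4391 and 3481 in knockout-labelled no DOX hearts. Among the WT arrays it was 5563, 6100 and 6218 with DOX and 5771, 5295 and 5170 without. The 3 knockout-labelled arrays without DOX were the 3 lowest of all 12, and the genotypes overlapped after DOX. The DOX response was 0.60 ± 0.084 (SE, adjusted p = 0.013) in knockout-labelled and 0.14 ± 0.084 (SE, adjusted p = 0.43) in WT hearts, and the genotype difference was -0.45 ± 0.084 (SE, adjusted p = 0.033) without DOX and 0.01 (adjusted p = 0.97) after DOX.

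Acadsb, the short/branched-chain enzyme that also serves isoleucine breakdown, was 1261, 1197 and 1139 in knockout-labelled DOX hearts and 903, 896 and 745 in knockout-labelled no DOX hearts. In WT hearts it was 1152, 1178 and 1112 with DOX and 975, 873 and 924 without. Here both genotypes separated by DOX, and both groups without DOX were low. The difference was 0.49 ± 0.072 (SE, adjusted p = 0.015) in knockout-labelled and 0.30 ± 0.072 (SE, adjusted p = 0.054) in WT hearts. Between genotypes it was -0.12 (adjusted p = 0.53) without DOX. The other 3, the long-chain Acadl, the medium-chain Acadm and the short-chain Acads, gave DOX responses of 0.22, 0.31 and 0.33 in knockout-labelled hearts, of which Acadm came closest to the threshold (adjusted p = 0.056).

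Etfa and Etfb are the 2 subunits of the electron transfer flavoprotein, and Etfdh is the oxidoreductase that hands its electrons to ubiquinone. None was called. Etfb was 3857, 3905 and 3550 in knockout-labelled no DOX hearts, against 5143, 4555 and 4497 in WT no DOX hearts. Every knockout-labelled array lay below every WT array, and the difference of -0.32 ± 0.07 (SE, adjusted p = 0.053) just missed the threshold. With DOX it was 4512, 4434 and 4516 in knockout-labelled hearts and 4240, 4714 and 5070 in WT hearts. Its partner Etfa changed least of the group, with a DOX response of 0.07 (adjusted p = 0.57) in knockout-labelled hearts and a genotype difference without DOX of -0.05 (adjusted p = 0.77).

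For hydration, the second oxidation and thiolysis 6 genes were read. Hadha and Hadhb encode the alpha and beta subunits of the mitochondrial trifunctional protein, which carries out all 3 steps on long chains. Hadhb was 13408, 13623 and 13084 in knockout-labelled DOX hearts and 9876, 11328 and 8740.5 in knockout-labelled no DOX hearts. Among the WT arrays it was 11918, 12889 and 14633 with DOX and 12195, 12061 and 11584 without. The knockout-labelled arrays without DOX again lay below all others, and the DOX response was 0.43 ± 0.092 (SE, adjusted p = 0.047) in knockout-labelled and 0.13 (adjusted p = 0.50) in WT hearts. Hadha was 4632, 4124 and 4300 in knockout-labelled DOX hearts and 3080, 3461 and 2236 in knockout-labelled no DOX hearts, a larger difference of 0.59 with a wider error (SE 0.16, adjusted p = 0.088). The 2 dimmer Hadhb probe sets gave -0.14 (adjusted p = 0.75) and 0.78 (adjusted p = 0.13) for the same comparison, so the probe sets of Hadhb disagreed in direction.

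The other 4 of this group are the short-chain hydratase Echs1, the hydroxyacyl-CoA dehydrogenase Hadh, and the thiolases Acaa2 and Acat1. In Hadh and Echs1, 1 array set the mean of the knockout-labelled no DOX group. Hadh was 13441, 13298 and 9009 there, against 13206, 14967 and 14704 in WT no DOX hearts, and Echs1 was 2227, 2663 and 1506, against 2394, 2099.8 and 2124. In both genes replicate 3 was the lowest of all 12 arrays while replicates 1 and 2 lay at or above the lowest WT array. Acat1 had no overlap between knockout-labelled and WT hearts without DOX (-0.35, adjusted p = 0.18), and Acaa2 overlapped (-0.38, adjusted p = 0.45).

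The group for unsaturated fatty acids held the 2 genes with the largest called DOX responses in knockout-labelled hearts, Decr1 and Ech1. Ech1 encodes a dienoyl-CoA isomerase, Decr1 the 2,4-dienoyl-CoA reductase, and Eci1 and Eci2 are enoyl-CoA isomerases. Ech1 was 14699.7, 12671 and 13098 in knockout-labelled DOX hearts and 8432, 9131 and 8101 in knockout-labelled no DOX hearts. In WT hearts it was 12309, 15096 and 15352 with DOX and 12937, 12776 and 11937 without. The 3 knockout-labelled arrays without DOX stood far below the other 9. The DOX response was 0.65 ± 0.089 (SE, adjusted p = 0.012) in knockout-labelled and 0.18 (adjusted p = 0.33) in WT hearts, and the genotype difference was -0.55 ± 0.089 (SE, adjusted p = 0.020) without DOX and -0.075 (adjusted p = 0.75) after DOX.

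Decr1 was 4854, 4628 and 4045 in knockout-labelled DOX hearts and 2758, 3466 and 2377 in knockout-labelled no DOX hearts. Among the WT arrays it was 4576, 5636 and 5719 with DOX and 4763, 4914 and 4482 without. The pattern of the groups was that of Ech1, with a wider spread. The DOX response was 0.66 ± 0.13 (SE, adjusted p = 0.039) in knockout-labelled and 0.16 (adjusted p = 0.59) in WT hearts, and the genotype difference without DOX was -0.73 ± 0.13 (SE, adjusted p = 0.030). The dimmer Decr1 probe set had the same directions without passing, at 0.76 (adjusted p = 0.11) for DOX in knockout-labelled hearts and -0.71 (adjusted p = 0.15) between genotypes without DOX.

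Eci1 and Eci2 were not called. Eci1 was the one gene of the 31 whose genotypes did not overlap after DOX: it was 3837, 3392 and 3418 in knockout-labelled DOX hearts, against 3866, 3885 and 5065 in WT DOX hearts (-0.26, adjusted p = 0.45). Without DOX its knockout-labelled arrays also lay lower (-0.60, adjusted p = 0.073). Eci2 was 2136, 2049 and 1916 in knockout-labelled DOX and 1961, 2758 and 2843 in WT DOX hearts. These groups overlapped, at -0.29 ± 0.14 (SE, adjusted p = 0.35).

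Of the peroxisomal members, Ehhadh, the bifunctional enzyme, was 223, 179 and 103 in knockout-labelled DOX hearts and 107, 91.9 and 55.8 in knockout-labelled no DOX hearts. The groups just overlapped, and the difference of 0.75 ± 0.25 (SE, adjusted p = 0.16) was large beside a large error. Between genotypes without DOX it was -0.80 ± 0.25 (SE, adjusted p = 0.16), with WT no DOX arrays at 149.5, 204 and 153. The thiolase Acaa1a averaged 207 ± 5.15 in knockout-labelled DOX and 211 ± 11.8 in knockout-labelled no DOX hearts (SD, n = 3), a difference of -0.03 (adjusted p = 0.92).

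**Figure D2:**
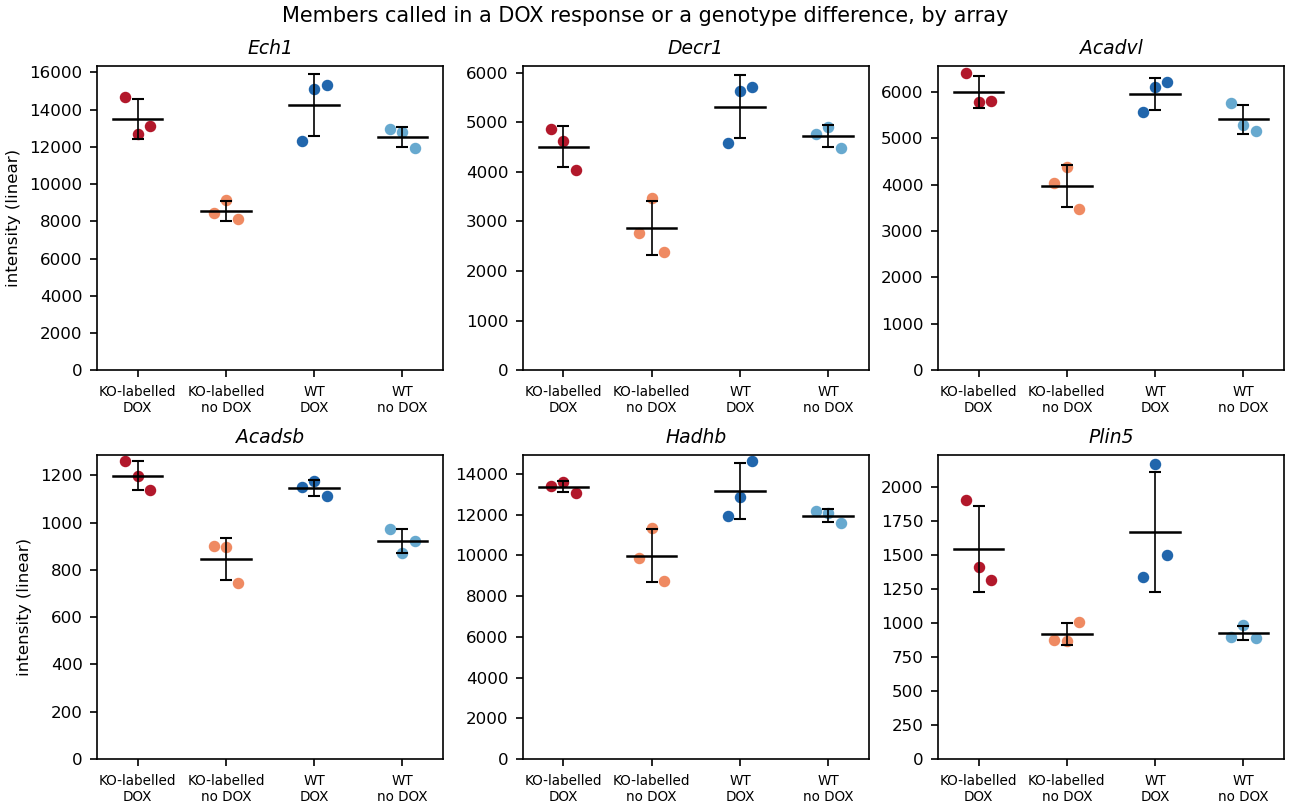
Linear intensity of the 6 called genes on each array, with the group mean (line) and SD (bar, n = 3), for knockout-labelled (KO-labelled) DOX, knockout-labelled no DOX, WT DOX and WT no DOX hearts. For Ech1, Decr1, Acadvl and Hadhb the knockout-labelled arrays without DOX lie below the other 9 arrays, whereas for Acadsb and Plin5 both groups without DOX are low.

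The promoter windows of 5 called genes are printed to show the sequence at the start of genes that passed the threshold for DOX. Each passed in 1 genotype only, but the DOX arrays of Acadsb and Plin5 lay above those without DOX in both. Each is the 300 bases from 250 before to 50 after the start in RefSeq, build GRCm38.p6, 5′ to 3′ on the gene's own strand. Capitals mark the half-site AGGTCA, on either strand, to which PPAR and ERR receptors bind. They lie at chr7:28825088-28825387 (plus strand) for Ech1, chr11:70015379-70015678 (minus strand) for Acadvl, chr7:131410351-131410650 (plus strand) for Acadsb, chr5:30155003-30155302 (plus strand) for Hadhb and chr17:56117499-56117798 (minus strand, the first of 2 windows) for Plin5.
Ech1: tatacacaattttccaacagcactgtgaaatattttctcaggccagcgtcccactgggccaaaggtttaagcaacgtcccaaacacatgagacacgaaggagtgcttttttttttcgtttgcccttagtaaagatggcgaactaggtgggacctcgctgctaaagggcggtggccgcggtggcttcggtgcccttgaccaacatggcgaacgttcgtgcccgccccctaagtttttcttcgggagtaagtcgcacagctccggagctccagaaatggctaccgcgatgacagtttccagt
Acadvl: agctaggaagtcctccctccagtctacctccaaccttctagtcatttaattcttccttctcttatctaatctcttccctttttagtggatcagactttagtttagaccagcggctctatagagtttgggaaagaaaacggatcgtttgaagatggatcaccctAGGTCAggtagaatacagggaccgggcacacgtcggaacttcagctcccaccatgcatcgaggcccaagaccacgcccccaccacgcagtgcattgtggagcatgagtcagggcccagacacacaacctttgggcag
Acadsb: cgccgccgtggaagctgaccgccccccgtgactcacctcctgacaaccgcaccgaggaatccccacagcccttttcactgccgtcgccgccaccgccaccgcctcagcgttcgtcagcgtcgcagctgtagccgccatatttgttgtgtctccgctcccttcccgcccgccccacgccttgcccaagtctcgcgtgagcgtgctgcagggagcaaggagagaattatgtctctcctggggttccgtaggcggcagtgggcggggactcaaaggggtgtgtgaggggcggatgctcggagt
Hadhb: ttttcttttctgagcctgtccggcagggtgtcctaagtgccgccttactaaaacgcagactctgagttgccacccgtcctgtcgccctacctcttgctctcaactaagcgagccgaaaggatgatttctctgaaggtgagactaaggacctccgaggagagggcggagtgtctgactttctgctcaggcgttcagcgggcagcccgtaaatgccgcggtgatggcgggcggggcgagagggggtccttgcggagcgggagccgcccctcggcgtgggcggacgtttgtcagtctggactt
Plin5: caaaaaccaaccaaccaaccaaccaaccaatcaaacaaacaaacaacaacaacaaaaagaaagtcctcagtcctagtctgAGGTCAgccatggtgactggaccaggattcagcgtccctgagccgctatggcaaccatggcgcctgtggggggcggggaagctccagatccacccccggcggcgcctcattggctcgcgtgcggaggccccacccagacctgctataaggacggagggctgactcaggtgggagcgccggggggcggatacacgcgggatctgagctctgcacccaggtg

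Windows were found for 27 of the 33 genes. AGGTCA lay in a window of 6 of these 27 genes, Acadvl, Acadm, Cpt1a, Echs1, Cd36 and Plin5, against 18.1% of all genes with a window. In Acadvl it began 87 bases before the start and in Plin5 170 bases before it. The longer ERR element TNAAGGTCA, searched on both strands and holding the half-site, lay in a window of 1.43% of all genes and of 0 of the 27. The starts of Hadha and Hadhb are 273 bases apart and point away from each other, so that 228 of the 300 bases of their windows are the same sequence, printed above for Hadhb.

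Whether the DOX response itself differed between genotypes was tested by the interaction of the 2 factors. In limma no gene was called, nor was any of the 45037 probe sets, with 0.0% called. On the brightest probe sets 5 genes had an unadjusted p under 0.05, all positive (Acadvl, Ech1, Etfb, Decr1 and Hadhb). This is 16.1% of the 31, against 8.69% of all probe sets in either direction. The differences between the DOX responses were 0.46 ± 0.12 for Acadvl (SE, adjusted p = 0.42), 0.48 ± 0.13 for Ech1 (SE, adjusted p = 0.43), 0.27 ± 0.10 for Etfb (SE, adjusted p = 0.53) and 0.50 ± 0.19 for Decr1 (SE, adjusted p = 0.54). Dimmer probe sets of Acaa1a (-0.43) and Cd36 (-0.44) passed the same unadjusted limit with a negative sign, and that of Decr1 (0.72) with a positive sign. None of these was called. A call in knockout-labelled hearts beside none in WT hearts is therefore not shown to be a difference between them.

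The arrays of a group differed in the level of many of the 31 genes. The group mean was lowest in knockout-labelled no DOX hearts for 25 of the 31 genes and highest in WT DOX hearts for 18. Relative to each gene's mean over the 12 arrays, the median of the genes on single arrays was 0.16, 0.04 and 0.0050 in knockout-labelled DOX, -0.25, -0.11 and -0.50 in knockout-labelled no DOX, -0.0067, 0.18 and 0.30 in WT DOX, and 0.03, 0.06 and -0.02 in WT no DOX hearts. The probe sets with a mean of at least 1000 showed no such shift as a whole, with medians between -0.0228 and 0.0288 on every array. The deposited arrays already had like medians, so this does not show that the shift is particular to these genes. Knockout-labelled no DOX replicate 3 was the lowest of all 12 arrays for 23 genes, and WT DOX replicate 3 the highest for 19. Genes below their own mean numbered 4, 10 and 15 on the knockout-labelled DOX arrays, 27, 26 and 27 on the knockout-labelled no DOX arrays, 16, 4 and 3 on the WT DOX arrays and 10, 7 and 21 on the WT no DOX arrays, and whether genes moved together was not tested.

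**Figure D3:**
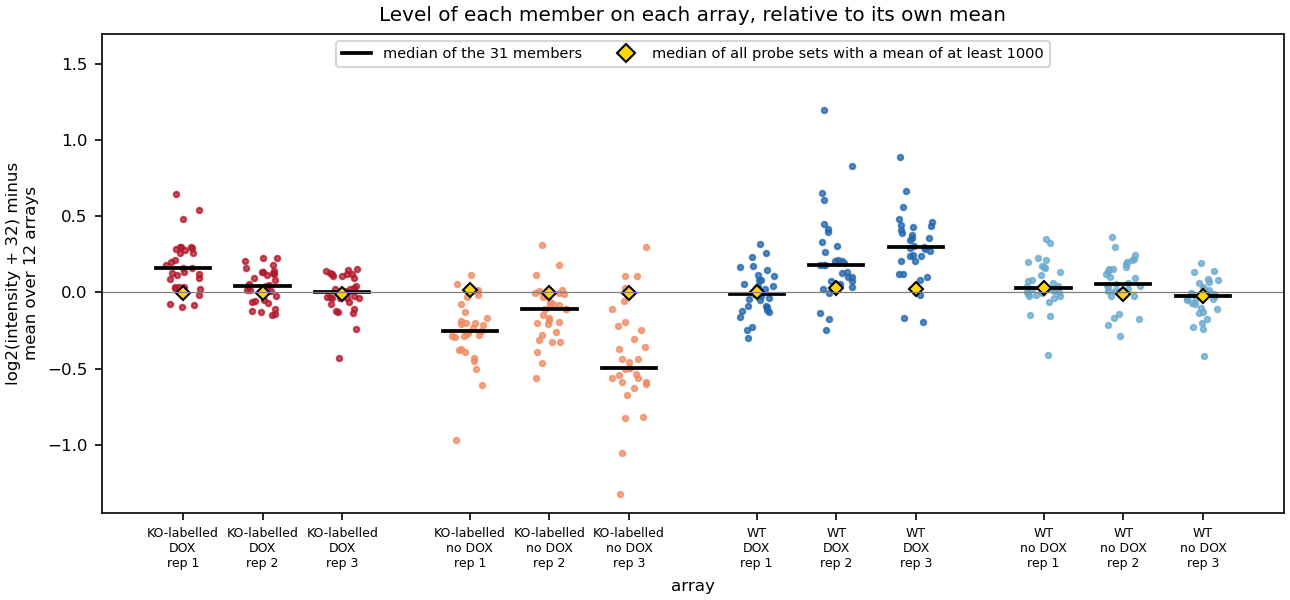
Each dot is 1 of the 31 genes on 1 array, as log2(intensity + 32) minus that gene's mean over the 12 arrays; black lines are medians of the 31 genes and yellow diamonds medians of all probe sets with a mean of at least 1000. KO-labelled stands for knockout-labelled. The 3 knockout-labelled no DOX arrays have medians of -0.25, -0.11 and -0.50, and the diamonds stay near 0 on all arrays.

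Knockout-labelled no DOX replicate 3 also had the highest summed intensity of the 10 macrophage markers, 9718, beside 7096 and 4876 in its group and 5087 to 6558 in WT no DOX hearts. The 8 fibroblast markers summed to 24914 on it, beside 21135 and 18231 in its group and 16228 to 18881 in WT no DOX hearts. With DOX these sums were 4526 to 5367 and 17300 to 19385 in knockout-labelled hearts, and 2951 to 3965 and 14934 to 17260 in WT hearts. The 10 cardiomyocyte markers summed to 175254, 178258 and 167886 in knockout-labelled no DOX hearts, all below the 186280, 180075 and 182187 of WT no DOX hearts, with replicate 3 the lowest of these 6 arrays. With DOX they summed to 162738 to 171537 in knockout-labelled and 154970 to 179055 in WT hearts. The 3 erythroid markers read summed to 40.4 to 51.0 in knockout-labelled DOX, 85.0 to 344.6 in knockout-labelled no DOX, 35.6 to 56.3 in WT DOX and 211.7 to 1160 in WT no DOX hearts. Among the markers, Ryr2, Cx3cr1, Col1a1 and Lum were called lower after DOX in knockout-labelled hearts, and Cd68, Csf1r, Dpt, Lum and Alas2 in WT hearts. The 10 cardiomyocyte markers, of which Ryr2 is 1, were split after DOX in knockout-labelled hearts, with 4 means higher and 6 lower (median -0.015). In WT hearts 1 was higher and 9 were lower (median -0.13). Between genotypes without DOX 4 were higher and 6 lower in knockout-labelled hearts. The adipocyte marker Lipe was called higher after DOX in knockout-labelled hearts (1.02, adjusted p = 0.044). Between genotypes all 8 fibroblast markers had higher means in knockout-labelled hearts both after and without DOX, with Lum called after DOX (1.17, adjusted p = 0.020) and Col1a1 without DOX (1.13, adjusted p = 0.048). The part of these cell types in the results was not tested.

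Without that array the genotype difference without DOX called 0 genes (Ech1 at adjusted p = 0.063, Acadvl 0.068 and Decr1 0.075), and its median was -0.17. Over all probe sets 0.362% were then called lower, where 0.89% were with that array. With 2 arrays against 3, groups did not overlap for 19 of the 31 genes, all lower in knockout-labelled hearts, against 14.8% of all probe sets and 23.9% of the bright ones. The DOX response in knockout-labelled hearts called 3 genes without it, Ech1, Acadvl and Acadsb, with a median of 0.25, and 0.5% of all probe sets were called higher. In WT hearts leaving out that array, which shares in the error estimate only, raised the calls to 3 with Acadsb and Cd36, and those over all probe sets to 2.39% higher.

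Other arrays decided calls as well. The 5 calls in knockout-labelled hearts became 0 without knockout-labelled DOX replicate 1 (Ech1 at adjusted p = 0.052, Acadvl 0.060, Acadsb 0.068), where calls over all probe sets also fell, to 0.0777% higher. They became the 3 genes Ech1, Acadvl and Acadsb without knockout-labelled DOX replicate 2 or 3, knockout-labelled no DOX replicate 1, or any 1 of the WT no DOX arrays, where 0.242% to 0.611% of all probe sets were called higher. The 3 genotype calls without DOX became 0 without knockout-labelled no DOX replicate 1 or any 1 of the WT no DOX arrays, 1 without knockout-labelled DOX replicate 2, 2 without knockout-labelled DOX replicate 3 and 5 without knockout-labelled no DOX replicate 2. Over all probe sets the share called lower in these settings lay between 0.107% and 1.09%. The single WT call of Plin5 was lost without 9 of the 12 arrays and held without WT DOX replicate 3, knockout-labelled DOX replicate 1 or knockout-labelled no DOX replicate 3, and over the 12 settings 0.0422% to 3.2% of all probe sets were called higher. A fit to only the 6 arrays of the comparison called 0 genes for DOX in knockout-labelled hearts (0.0622% of all probe sets higher), 2 for DOX in WT hearts, Acadsb and Cd36 but not Plin5 (0.999% higher), and 1 between genotypes without DOX, Ech1 (0.286% lower). An exact permutation test of 3 against 3 arrays cannot go below 0.10, so single genes were not tested that way.

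The dimmer probe sets were counted separately. Of the 29 other probe sets of the 31 genes, 22 had a higher mean with DOX in knockout-labelled hearts and 19 in WT hearts. Among the 17 of them with a mean intensity of at least 100 these counts were 13 and 12. Without DOX 19 of the 29, and 11 of the 17, were lower in knockout-labelled than in WT hearts. Called were 1 in knockout-labelled and 3 in WT hearts for DOX, all higher, where 0.731% and 1.66% of all probe sets were called higher. Between genotypes 0 were called, where 0.941% of all probe sets were after DOX and 1.81% without it. After DOX, dimmer probe sets of Acaa1a (-0.44), Fabp4 (-0.60 and -0.49), Slc27a1 (-0.56), Cd36 (-0.30), Cpt1a (-0.12) and Cpt2 (-0.11) were lower in knockout-labelled hearts at an unadjusted p under 0.05 in limma. Those of Crat (0.37) and Acsl4 (0.15) were higher, and 15.5% of all probe sets passed this limit in either direction. The mean intensity was 10.9 for this Cpt1a and 13.9 for this Cpt2 probe set, below every array median. It was 72.7 for that of Crat and 50.2 for that of Acsl4.

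The wider network of fatty acid metabolism was taken from 7 lists with 79 further genes, of which 72 were read. These lists too were chosen with earlier results known. For DOX in knockout-labelled hearts 6 of the 72 rose (8.33%, against 0.731% of all probe sets and 3.67% of the bright ones) and 0 fell. For DOX in WT hearts 5 rose (6.94%, against 1.66% of all and 5.07% of the bright ones) and 0 fell. Between genotypes 1 was lower in knockout-labelled hearts without DOX (1.39%, against 0.89% of all and 3.14% of the bright probe sets). After DOX 0 were called in limma. The unadjusted p after DOX was under 0.05 for 12 (16.7%, against 15.5% of all probe sets), of which 8 were lower. The median differences were 0.085 for DOX in knockout-labelled hearts, -0.0062 for DOX in WT hearts, -0.098 between genotypes without DOX and -0.026 after DOX.

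Among other acyl-CoA enzymes, Acss1, the mitochondrial acetyl-CoA synthetase, and Acad10, a relative of the dehydrogenases, rose in both genotypes. Acss1 was 3379, 2926 and 2679.8 in knockout-labelled DOX and 1571, 1753 and 1109.7 in knockout-labelled no DOX hearts, and 4330, 4658 and 4176 in WT DOX and 2654, 2249 and 2022 in WT no DOX hearts. No DOX array overlapped an array without DOX of its genotype, and the differences were 1.02 (adjusted p = 0.018) in knockout-labelled and 0.92 (adjusted p = 0.024) in WT hearts. Acad10 gave 0.40 (adjusted p = 0.0077) in knockout-labelled and 0.34 (adjusted p = 0.013) in WT hearts. Acot1, an acyl-CoA thioesterase, gave 1.54 (adjusted p = 0.061) in knockout-labelled hearts and rose in WT hearts at 1.60 (adjusted p = 0.047), with 207, 568 and 606 on the WT DOX and 94.6, 131 and 127 on the WT no DOX arrays. Slc25a20, the carnitine-acylcarnitine carrier of the inner membrane, was the gene lower without DOX: it was 1957, 2419.6 and 1943 in knockout-labelled and 3362, 3843 and 3436 in WT hearts, a difference of -0.75 ± 0.12 (SE, adjusted p = 0.020).

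Of 16 regulators, Ppargc1a, which encodes PGC-1alpha, and Acacb, the acetyl-CoA carboxylase that makes malonyl-CoA at the mitochondrion, rose in knockout-labelled hearts. Ppargc1a was 1648, 1659 and 1596 in knockout-labelled DOX and 1217, 1242 and 1014 in knockout-labelled no DOX hearts, at 0.49 (adjusted p = 0.045). In WT hearts it was 1885, 1555 and 1631 with DOX and 1753, 1410.2 and 1417 without, with overlap (0.15, adjusted p = 0.52). Acacb gave 0.70 (adjusted p = 0.049) in knockout-labelled and 0.48 (adjusted p = 0.13) in WT hearts. The receptor gene Ppara gave 0.14 (adjusted p = 0.60) and -0.0079 (adjusted p = 0.98) in the same order.

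Triglyceride breakdown and storage held 3 called genes of 13 read. Lipe, hormone-sensitive lipase, was called higher in knockout-labelled hearts at 1.02 (adjusted p = 0.044). Pnpla2, adipose triglyceride lipase, and Plin4, a droplet coat protein, were called higher in WT hearts at 0.97 (adjusted p = 0.030) and 1.42 (adjusted p = 0.029). Pnpla2 was 1704, 2409 and 2532 in WT DOX and 1079, 1247 and 981 in WT no DOX hearts. In both genotypes all DOX arrays of Lipe, Pnpla2 and Plin4 lay above the arrays without DOX. Over all probe sets this held for 11.1% in knockout-labelled and 11.6% in WT hearts. Of 7 PPAR targets read, Txnip, which binds thioredoxin, rose in knockout-labelled hearts at 1.48 (adjusted p = 0.039), and Pdk4, the pyruvate dehydrogenase kinase, gave 1.02 (adjusted p = 0.22) in knockout-labelled and 1.57 (adjusted p = 0.059) in WT hearts.

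In 3 lists nothing was called. The smallest p for DOX among 7 peroxisomal genes were those of Hsd17b4 and Amacr in knockout-labelled hearts (-0.15 and 0.15, adjusted p = 0.52 and 0.53) and of Abcd2 and Acox3 in WT hearts (-0.20 and -0.07, adjusted p = 0.39 and 0.42). Among 10 other transport and binding genes they were those of Cav1, caveolin 1, and Fabp5 in both genotypes, at -0.18 and -0.28 in knockout-labelled (adjusted p = 0.32 and 0.34) and -0.25 and -0.36 in WT hearts (adjusted p = 0.14 and 0.17). Ketone body use gave Oxct1, which activates ketone bodies, and Slc16a1, a monocarboxylate carrier, at -0.25 and -0.30 in knockout-labelled (adjusted p = 0.19 and 0.26) and -0.23 and -0.52 in WT hearts (adjusted p = 0.20 and 0.055).

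**Figure D4:**
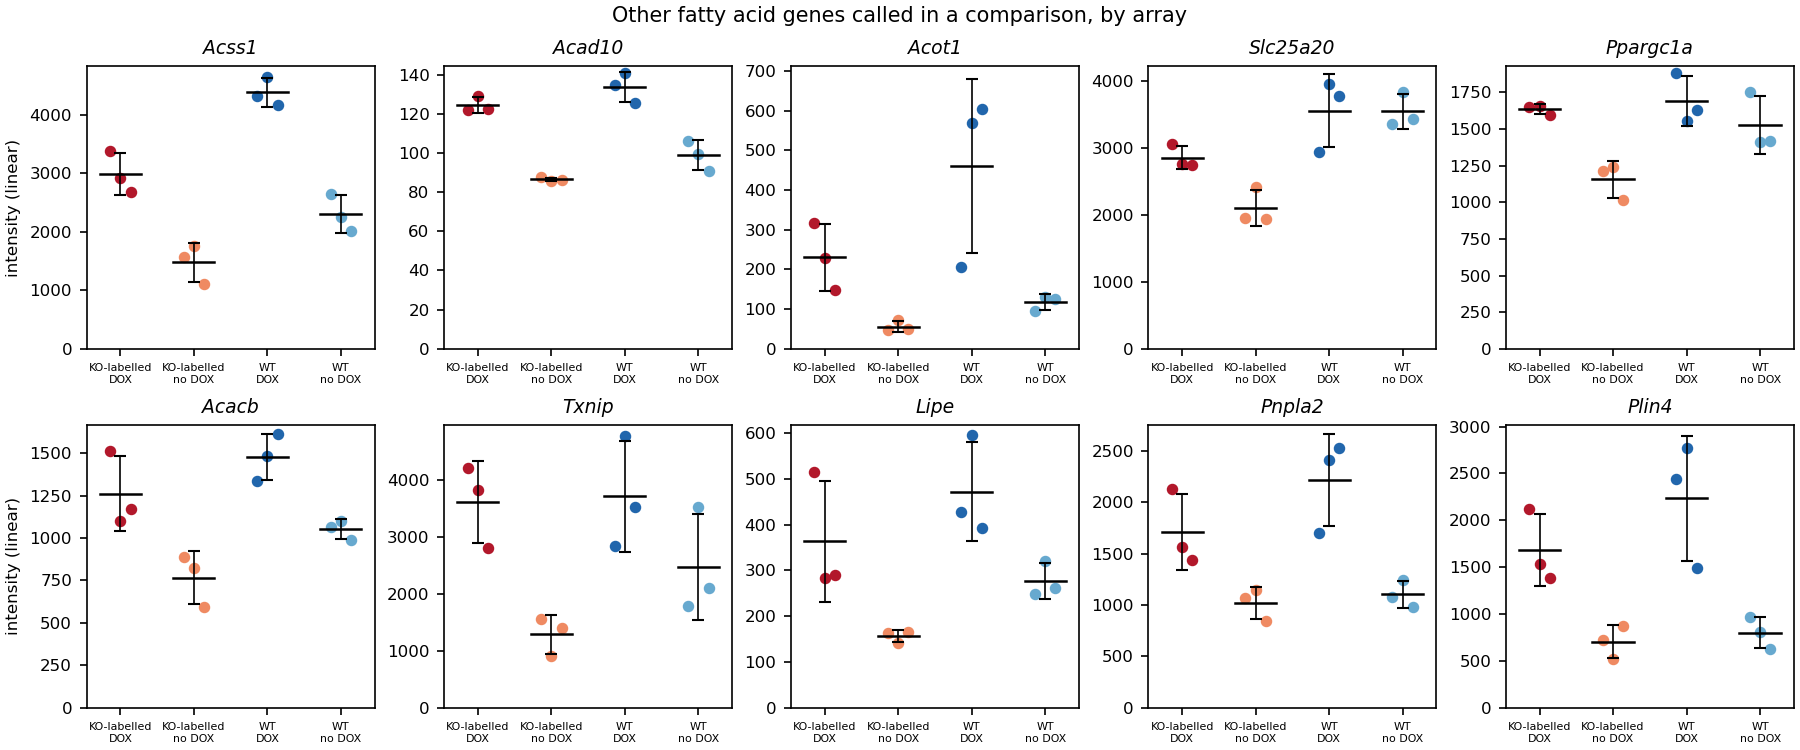
Linear intensity on each array of the 10 genes outside the 33 that were called in a comparison, with the group mean (line) and SD (bar, n = 3) in knockout-labelled (KO-labelled) and WT hearts with and without DOX. For Acss1 and Acad10 all DOX arrays lie above the arrays without DOX of their genotype, and Slc25a20 is lowest in knockout-labelled no DOX hearts.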

How the data were processed

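Hearts were profiled on 12 Affymetrix arrays. The deposited values are linear probe-set intensities, made by the authors with Affymetrix Expression Console according to the submitters' processing notes. The version and summary method, which bear on dim probe sets, are not given in the sources used here. Probe sets were named from the platform's gene table (34945 name 1 gene, 932 several, 9160 none), with symbols updated by Entrez ID (RefSeq, GRCm38.p6). The 33 genes and the further lists were chosen with earlier results of these data known.

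Before log2, 32 was added. limma 3.58.1 (R 4.3.3; eBayes without a trend) estimated 4 group means from the 12 arrays. Tests were two-sided, Benjamini-Hochberg adjustment ran over all 45037 probe sets, and an adjusted p under 0.05 was a call. Comparisons were the DOX response in each genotype, the genotype difference with and without DOX, and the interaction. The number of arrays limits the precision.

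Values on each array are given for every called gene and for the 4 genes with the smallest p in each comparison. Of the further lists every called gene is named, or the 2 with the smallest p. Other genes named, and the brightness limit of 1000 for the second background, were chosen after their values were seen. The steps were tested on simulated data. Alternatives were quantile normalization, array medians, a trended robust variance, array weights, a replicate block, added values of 1, 16 and 64, a filter at a mean of 100, adjustment over 1 probe set per gene, averaging a gene's probe sets, the 6 arrays compared, the methods' t-test, and leaving out each array. Tables were handled in Python 3.11.15 (pandas 2.3.3), and plots drawn with matplotlib 3.10.9. Promoter sequences are from RefSeq.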

Additional observations from a re-analysis of the deposited data

How the results depend on the processing

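The number of genes called depended on the setting, and so did the share of all features called in the same direction, given in brackets. For DOX in knockout-labelled hearts the 5 calls (0.731% higher) became 9 after a filter at a mean of 100 (4.88%), 0 with only the 6 arrays compared (0.0622%), and 15 with the methods' t-test, 14 higher (6.12%) and 1 lower (5.76%), which called 0 after Benjamini-Hochberg adjustment (0.0%). Leaving out 1 array gave 0 to 7 (0.0777% to 0.921%). For DOX in WT hearts the 1 call (1.66% higher) became 3 with a trended robust variance (2.62%), with array weights (3.23%), with 1 probe set per gene (2.41%) and with probe sets averaged per gene (2.68%), 5 after the filter (7.56%), 0 with 64 added (1.38%), and 6 with the t-test (7.28%), of which 0 after adjustment (0.00444%). With the 6 arrays Plin5 was lost and 2 others, Acadsb and Cd36, were called (0.999%). Leaving out 1 array gave 0 to 3 (0.0422% to 3.2%). Between genotypes without DOX the 3 calls (0.89% lower) became 5 with array weights (1.43%) and with 1 probe set per gene (2.27%), 7 after the filter (5.2%), 1 with the 6 arrays (0.286%), and 11 with the t-test (6.18%), of which 0 after adjustment (0.00444%). Leaving out 1 array gave 0 to 5 (0.107% to 1.09%). After DOX, and for the interaction, every alternative run gave 0, and the interaction was not fitted to 6 arrays or by the t-test. The filter tests fewer probe sets and the 6 arrays are fewer samples. The cause of the other changes was not tested.

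No named difference turned its sign under any alternative. The called ones kept the threshold in 164 of their settings and lost it in 70, and the uncalled ones stayed uncalled in 273 and passed in 27. With each array left out in turn, the median of the 31 genes ranged from 0.25 to 0.39 for DOX in knockout-labelled hearts, from 0.03 to 0.19 in WT hearts and from -0.36 to -0.17 between genotypes without DOX. After DOX it ranged from -0.16 to 0.0053, so its sign depended on the arrays kept.

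Same-numbered replicates did not deviate together (correlations over probe sets between -0.20 and 0.15), so the numbers were not taken as pairs. With the replicate number as a block the calls were 4 for DOX in knockout-labelled hearts, without Hadhb, 1 for DOX in WT hearts, with Acadsb in place of Plin5, and 3 between genotypes without DOX. The block gave 0 after DOX and 0 for the interaction.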
